A study of Homo sapiens with 6 samples.

Results

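The genes described here are the 10 that set the pace of the G1 phase of the cell cycle, namely the D-type cyclins CCND1, CCND2 and CCND3, the E-type cyclins CCNE1 and CCNE2, the cyclin-dependent kinases CDK2, CDK4 and CDK6, and the kinase inhibitors CDKN1B and CDKN2C. They were taken as a named list, all 10 were found among the 34957 genes of the deposited tables, and 86 of the 180253 transcripts in the tables belong to them. The cells were A549, a line long established from a lung adenocarcinoma, and they received a negative control siRNA (A549_NC in the labels, called si-ctrl here) or 1 of 2 siRNAs against the long noncoding RNA PLANE (si-PLANE.1 and si-PLANE.2), and no other agent or genetic change sets the groups apart. RNA was collected 48 h after transfection, and RNA-seq was carried out on 2 libraries per group, numbered 1 and 2 in the labels except in the si-PLANE.2 group, where the numbers are 3 and 4. All 6 libraries come from 1 cell line, and nothing in the labels says that the replicates were separate cultures, so the p-values below measure the spread between these libraries, which may be technical. PLANE itself was not analysed here, and its knockdown was therefore not checked.

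In G1, D-type cyclins bind CDK4 or CDK6 and start the phosphorylation of the retinoblastoma protein, and cyclin E with CDK2 completes it, which frees E2F factors to switch on the genes of S phase. The INK4 inhibitors, to which the CDKN2C product p18 belongs, bind CDK4 and CDK6 and keep D-type cyclins away, while the Cip/Kip inhibitor p27, the product of CDKN1B, binds cyclin E-CDK2 and is itself held by cyclin D complexes. Lung adenocarcinoma cells often carry lesions of this pathway, and CCND1 is a well known target of growth factor signalling. Only RNA was measured here, and the activity of these kinases is also set by protein turnover and phosphorylation.

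The libraries held 10572151 to 20778431 expected counts, which are estimates of the reads from each transcript and need not be whole numbers. The si-PLANE.2 libraries stood apart. Across genes, their log2 CPM (counts scaled to library size) correlated at 0.995 with each other and at 0.889 to 0.906 with any other library, against 0.978 to 0.989 among the 4 libraries of the other groups. The median level of 10 histone genes whose mRNAs lack a poly(A) tail was 142 to 281 FPKM (a level normalized for transcript length and sequencing depth) with si-ctrl or si-PLANE.1, but only 0.835 and 0.800 FPKM with si-PLANE.2. Both poly(A) isolation and rRNA removal are given in the methods, with no word on which library had which, so the siRNA and the preparation of the si-PLANE.2 libraries cannot be told apart in any comparison below. All 5 epithelial markers were at 1 FPKM or more in every library, but EPCAM (2.59 and 2.70 FPKM, against 14.8 to 26.5 in the other 4 libraries) and CDH1 (36.5 and 35.4, against 130 to 160) were lower in si-PLANE.2 and KRT8 (5823 and 5772, against 2712 to 3332) and KRT18 (5131 and 5054, against 2999.8 to 4281) were higher there, while the 5 markers of type II alveolar cells, the cell type that A549 is taken to resemble, summed to at most 1.68 FPKM. Of the 3 leukocyte markers, PTPRC and CD3E were at or near 0 and CD68 was at 18.3 to 63.0 FPKM, highest in both si-PLANE.2 libraries. The endothelial markers were at or near 0, and COL1A1 was the only fibroblast marker at 1 FPKM or more in all libraries, at 3.29 to 13.1 FPKM.

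Levels of different genes were compared per length, as the FPKM summed over the transcripts of each gene. In si-ctrl, CCND1 had the highest level (267 ± 16.9 FPKM, SD, n = 2), followed by CCND3 (110 ± 4.41) and CDK4 (103 ± 11.6), whose ranges overlapped. CDKN1B (46.2 ± 1.32), CDK2 (33.3 ± 3.80), CDK6 (20.7 ± 1.69), CCNE1 (14.7 ± 3.37) and CDKN2C (10.5 ± 0.926) came next, each below the one before it in both libraries. CCNE2 stood at 1.57 ± 0.445 FPKM. CCND2 had 0 to 3 counts in each library, at most 0.03 FPKM, and was left out of the tests, which took in genes with a mean of at least 0.5 FPKM in the libraries compared. Of the 10 genes, 9 passed that minimum in each comparison. In si-PLANE.1 the order was the same. In si-PLANE.2 the summed levels of CCND1 (196 ± 16.3), CDK4 (193 ± 11.3) and CCND3 (190 ± 3.63) overlapped, and CDK6 (5.15 ± 1.06) lay below CDKN2C (19.0 ± 0.240) and CCNE1 (16.8 ± 0.537) instead of above them.

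**Figure D1:**
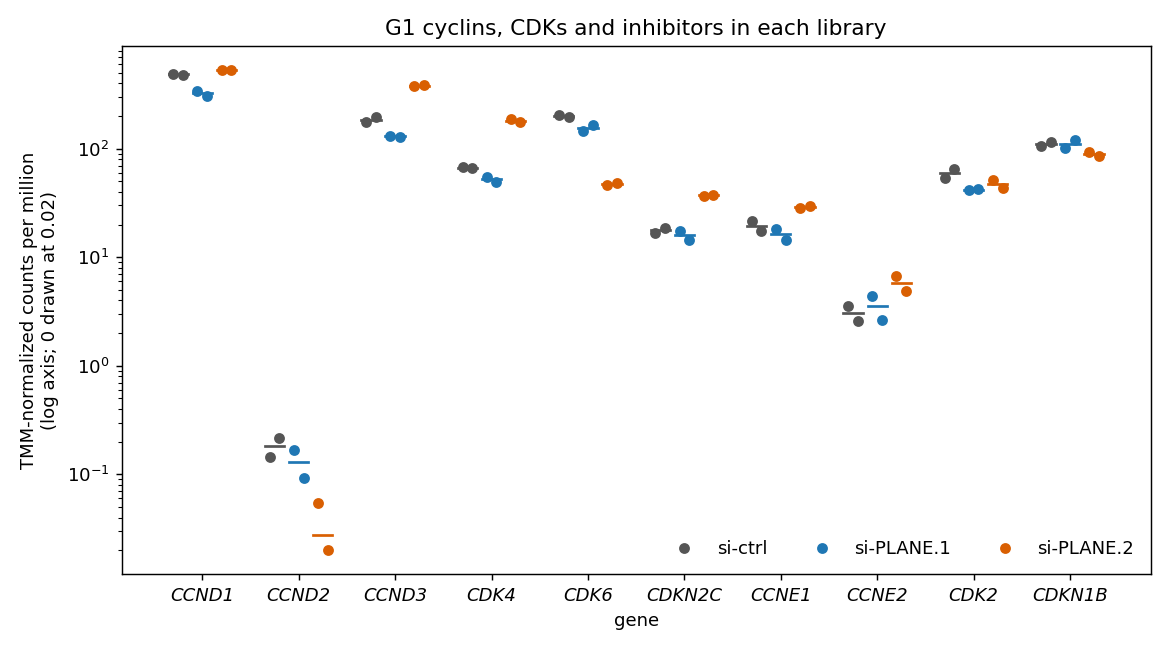
Level of each of the 10 genes in each of the 6 libraries, as TMM-normalized CPM on a log axis, with the genes along the horizontal axis. Points are single libraries, short lines are the means of the 2 libraries of a group, and a value of 0 is drawn at 0.02. CDK4 and CDK6 move apart in si-PLANE.2, and CCND2 lies far below the other genes in all groups.

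The effect of each siRNA was examined by comparing the summed counts of each gene with si-ctrl, using edgeR's quasi-likelihood test with Benjamini-Hochberg adjustment over all genes tested. After si-PLANE.1, 8 of the 9 tested genes had a log2 fold change below 0, and their median was -0.36 against 0.0018 over all 14535 genes tested. No gene of the set passed an adjusted p of 0.05 in edgeR without a term for the replicate number (lowest adjusted p = 0.289), and 0.0344% of all genes did. The 5 with an unadjusted p under 0.05 were CCND1, CCND3, CDK2, CDK4 and CDK6, all of them lower in both si-PLANE.1 libraries than in both si-ctrl libraries. Among all genes, 5.77% were lower at an unadjusted p under 0.05 and 21.1% were lower without overlap. With DESeq2, 1 gene of the set, CCND1, passed (adjusted p = 0.0122), as did 0.853% of all genes. With a term for the shared replicate numbers 1 and 2 in edgeR (a replicate block), CCND1, CCND3, CDK2, CDK4 and CDK6 passed, all lower. So did 8.43% of all genes, and no source says that a number stands for a batch. The edgeR values for si-PLANE.1 below are from the fit without this block unless stated.

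With si-PLANE.2, 5 of the 9 genes rose (CCND3, CCNE1, CCNE2, CDK4 and CDKN2C) and 2 fell (CDK6 and CDKN1B) at an adjusted p under 0.05, and the libraries of all 9 did not overlap with si-ctrl. Of all 14168 genes tested in this comparison, 64.1% passed the same threshold, 31.8% higher and 32.3% lower, and 82.9% did not overlap, so the share of the set that changed lies near that of all genes. The median log2 fold change of the 9 genes was 0.56, against -0.027 over all genes. Limma on log2(FPKM + 1) split the genes passing into 3006 higher and 5105 lower, against 4512 and 4571 in edgeR. The number of genes of the set that passed fell to 4 when either si-PLANE.2 library was left out, and the share of all genes to 46.0% and 46.5%, the lone si-PLANE.2 library being assumed to vary like si-ctrl, the calls of CCNE1, CCNE2 and CDKN1B being lost from the set in both cases.

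**Figure D2:**
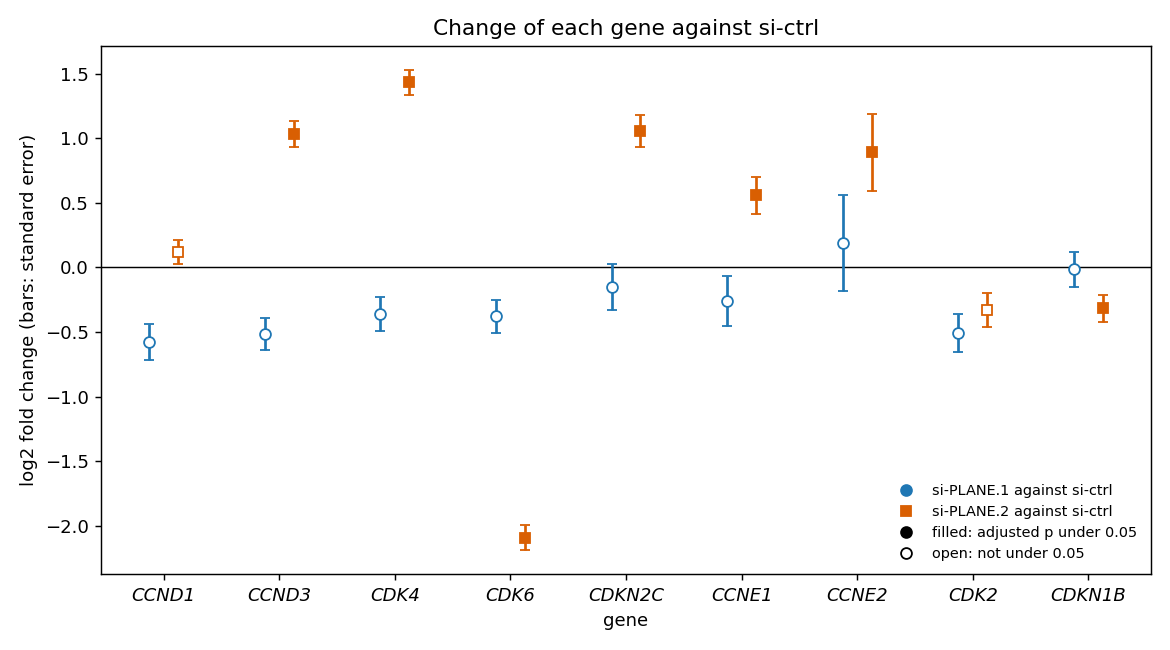
Log2 fold change of each tested gene against si-ctrl for si-PLANE.1 (circles) and si-PLANE.2 (squares), with bars of 1 standard error. Filled symbols had an edgeR adjusted p under 0.05 and open symbols did not. All si-PLANE.1 symbols are open, and the si-PLANE.2 values run from -2.09 for CDK6 to 1.43 for CDK4.

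CCND1 (chr11:69455924-69469242, plus strand, hg19) encodes cyclin D1. Its level was 485 and 480 TMM-normalized CPM in si-ctrl, 343 and 305 in si-PLANE.1 and 527 and 532 in si-PLANE.2. Both si-PLANE.1 libraries were thus below both si-ctrl libraries, and both si-PLANE.2 libraries were slightly above them. The log2 fold change was -0.58 after si-PLANE.1 (SE 0.14, edgeR adjusted p = 0.293), and it was 0.12 after si-PLANE.2 (SE 0.094, edgeR adjusted p = 0.286). The sign of the second value depended on the scale. On summed FPKM, where short transcripts weigh more, CCND1 was at 255 and 279 in si-ctrl, 199 and 176 in si-PLANE.1 and 184 and 207 in si-PLANE.2. Limma on log2(FPKM + 1) gave -0.45 for si-PLANE.2 (adjusted p = 0.0165, with 57.2% of all genes passing). The median over all genes also lay lower in that fit, at -0.22 for si-PLANE.2 against -0.027 in edgeR.

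The groups differed in which short transcripts of CCND1 carried its FPKM. CCND1-201 (ENST00000227507), the coding transcript of 4307 bases, took 88.3% to 92.2% of the gene's counts in the 6 libraries but 36.6% to 56.2% of its FPKM. Most of the remaining FPKM belonged to 4 transcripts of the retained intron class, which are partial and are not annotated as coding. They took 7.76% to 11.6% of the counts. The exon border that sets CCND1-202, the most abundant of these in si-ctrl, apart from the coding transcript is shown here to make plain which bases differ. Both sequences were read 5′ to 3′ from the GENCODE v44lift37 transcripts (GRCh37, plus strand), with 15 bases on each side of the border, and capitals mark the bases that follow it.
CCND1-201, exon 2 (to chr11:69458014) joined to exon 3 (from chr11:69458600): cccgaggagctgctgCAAATGGAGCTGCTC
CCND1-202, exon 2 running into intron 2 (chr11:69458000-69458029): cccgaggagctgctgGTAACCACTGGACCC
CCND1-202 thus reads on through the GT with which intron 2 starts and ends 71 bases into it.

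CCND1-201 stood at 109 and 102 FPKM in si-ctrl, 81.7 and 69.3 in si-PLANE.1 and 103 and 101 in si-PLANE.2. The coding transcript was therefore lower in both si-PLANE.1 libraries, with a log2 fold change of -0.57 on counts (SE 0.13, edgeR adjusted p = 0.999 over 57625 transcripts, of which 0 or 0.0% passed and 2552 had an unadjusted p under 0.05). DESeq2 gave CCND1-201 an adjusted p of 0.00610 and passed 0.661% of all transcripts. After si-PLANE.2 its log2 fold change was 0.24 (SE 0.090, edgeR adjusted p = 0.128, DESeq2 adjusted p = 0.0131). Of the 56791 transcripts tested for si-PLANE.2, 25.6% passed in edgeR and 32.9% in DESeq2, and when either si-PLANE.2 library was left out, 0 transcripts of any gene passed. That limit holds for every si-PLANE.2 transcript call below.

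CCND1-202 (ENST00000535993, 568 bases) had the highest FPKM of all CCND1 transcripts in si-ctrl, at 139 and 165 FPKM, stood at 109 and 94.6 in si-PLANE.1, and was at 2.81 and 3.19 FPKM in si-PLANE.2. Its counts were 601 and 742, 380 and 316, and 19.6 and 19.5 in the same order. The loss in si-PLANE.2 amounted to a log2 fold change of -5.30 (SE 0.23, edgeR adjusted p = 0.00529), and after si-PLANE.1 it was -0.67 (SE 0.17, edgeR adjusted p = 0.999), close to that of CCND1-201. CCND1-204 (ENST00000539241) showed the opposite pattern, with 0 and 10.7 counts in si-ctrl, 0 and 12.3 in si-PLANE.1 and 505 and 698 in si-PLANE.2 (log2 fold change 6.56, SE 1.20, edgeR adjusted p = 0.0292). CCND1-205 (ENST00000542367) had 0 counts in all 4 libraries of si-ctrl and si-PLANE.1 and 204 and 200 counts in si-PLANE.2, which made it at least 48.2-fold higher in si-PLANE.2 than in si-ctrl, taking 3 counts per library as the floor. CCND1-206 (430 bases) was a minor transcript at 6.01 and 9.81 FPKM in the control, 8.19 and 10.1 with si-PLANE.1, and 1.87 and 1.01 with si-PLANE.2 (edgeR adjusted p = 0.121).

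In mean FPKM, CCND1-202 fell by 149 from si-ctrl to si-PLANE.2, CCND1-204 and CCND1-205 were higher by 45.0 and 42.8, and CCND1-201 fell by 3.24. The retained intron transcripts as a class held 57.0% and 63.0% of CCND1 FPKM in si-ctrl, 58.7% and 60.4% in si-PLANE.1 and 43.6% and 50.7% in si-PLANE.2. How reads are shared out among overlapping transcripts is an estimate of the authors' tool, and a fragment of these short transcripts that lies inside an exon fits CCND1-201 as well. The main transcript of CCND1 also shares 497 exonic bases with LTO1, a gene on the other strand, and whether the counting used strand is not given in the sources used here.

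**Figure D3:**
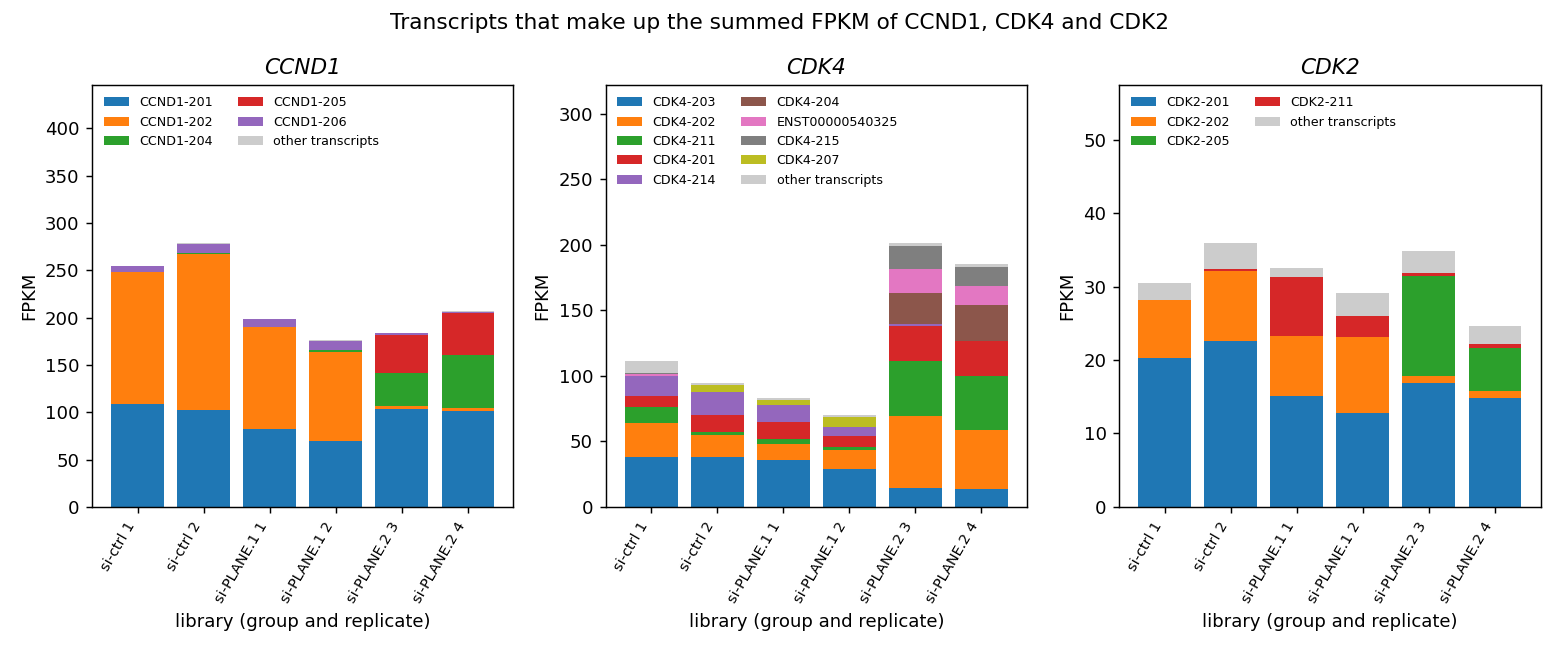
Summed FPKM of CCND1 (left), CDK4 (middle) and CDK2 (right) in each library, split into transcripts. Bars are single libraries and colours are transcripts, with those below the naming threshold in light grey. In CCND1 the coding transcript CCND1-201 keeps 69.3 to 109 FPKM in all libraries, while in si-PLANE.2 CCND1-202 is lower and CCND1-204 and CCND1-205 are higher.

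CCND3 (chr6:41902672-42018095, minus strand) encodes cyclin D3. It was at 175 and 195 CPM in si-ctrl, 131 and 130 in si-PLANE.1, and 377 and 387 in si-PLANE.2. The siRNA groups lay on opposite sides of the control without overlap, with a log2 fold change of -0.51 after si-PLANE.1 (SE 0.12, edgeR adjusted p = 0.289) and 1.04 after si-PLANE.2 (SE 0.10, edgeR adjusted p = 9.28e-05). The rise after si-PLANE.2 was called under all alternatives run, with values from 0.62 to 1.12. The coding transcript CCND3-203 moved in the same way, from 83.7 and 94.1 FPKM in si-ctrl to 68.2 and 63.6 in si-PLANE.1 and 167 and 172 in si-PLANE.2 (log2 fold change 1.22 on counts, SE 0.11, edgeR adjusted p = 0.00946). CCND3-213, the other transcript at 5 FPKM or more, was at 6.39 and 4.11, 3.95 and 1.78, and 8.16 and 7.17 FPKM.

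Compared per length on the main transcripts, the ratio of CCND1-201 to CCND3-203 was 1.30 and 1.08 in si-ctrl, 1.20 and 1.09 in si-PLANE.1, and 0.619 and 0.588 in si-PLANE.2. On summed FPKM the ratio of CCND1 to CCND3 was 2.37 and 2.45, 2.35 and 2.22, and 0.982 and 1.08 in the same order. By either measure both si-PLANE.2 libraries lay below the other 4, and CCND3 exceeded CCND1 in both of them only between the main transcripts. CCND2, the third D-type cyclin, summed to 2 and 3 counts in si-ctrl, 2 and 1 in si-PLANE.1, and 1 and 0 in si-PLANE.2, at or below the floor of 3 counts in every library, so no fold is given.

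Of the E-type cyclins, which activate CDK2 late in G1, CCNE1 (chr19:30302898-30315219, plus strand) was at 21.5 and 17.6 CPM in si-ctrl, 18.4 and 14.5 in si-PLANE.1, and 28.5 and 29.6 in si-PLANE.2. The si-PLANE.1 values overlapped with si-ctrl (log2 fold change -0.26, SE 0.19, edgeR adjusted p = 0.674), and the si-PLANE.2 values lay above them (0.56, SE 0.14, edgeR adjusted p = 0.0101). The latter call was lost without replicate 3 (edgeR adjusted p = 0.0610) or 4 (0.0813) of si-PLANE.2 and in limma on log2(FPKM + 1), where the log2 fold change was 0.20 (adjusted p = 0.365). At the transcript level, CCNE1-201 was at 3.24 and 3.84, 2.72 and 1.31, and 6.32 and 7.62 FPKM, with a log2 fold change of 1.26 after si-PLANE.2 (SE 0.27, edgeR adjusted p = 0.0394). CCNE1-203, the main transcript over all libraries, was at 9.60 and 5.76, 9.48 and 7.86, and 6.30 and 7.61 FPKM, so both siRNA groups overlapped with si-ctrl.

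CCNE2 (chr8:95891998-95908906, minus strand) was low, at 3.58 and 2.59 CPM in si-ctrl, 4.38 and 2.67 in si-PLANE.1, and 6.66 and 4.84 in si-PLANE.2. Its log2 fold change was 0.19 after si-PLANE.1 (SE 0.37, edgeR adjusted p = 0.876) and 0.89 after si-PLANE.2 (SE 0.30, edgeR adjusted p = 0.0305). The second call was lost in DESeq2 (adjusted p = 0.0680), in limma on log2(FPKM + 1) (adjusted p = 0.0682) and in edgeR without replicate 3 (adjusted p = 0.228) or 4 (adjusted p = 0.0511) of si-PLANE.2. Its main transcript, CCNE2-201 (2726 bases), was at 0.910 and 0.720, 1.68 and 0.820, and 1.86 and 1.03 FPKM in the 3 groups, and did not pass (edgeR adjusted p = 0.184 for si-PLANE.2). It shares 1522 exonic bases with INTS8 on the other strand, so the counts of CCNE2 are uncertain.

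The kinase partners of the D-type cyclins moved in opposite directions after si-PLANE.2. CDK4 (chr12:58141510-58149796, minus strand) was at 67.2 and 66.3 CPM in si-ctrl, 55.4 and 49.0 in si-PLANE.1, and 188 and 175 in si-PLANE.2. CDK6 (chr7:92234235-92465887, minus strand) was at 205 and 197 CPM in si-ctrl, 145 and 165 in si-PLANE.1, and 46.4 and 48.4 in si-PLANE.2. Neither gene overlapped between any 2 groups. After si-PLANE.1 both had values below 0, at -0.36 for CDK4 (SE 0.13, edgeR adjusted p = 0.419) and -0.38 for CDK6 (SE 0.13, edgeR adjusted p = 0.409).

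After si-PLANE.2, CDK4 rose by 1.43 on the log2 scale (SE 0.096, edgeR adjusted p = 2.03e-05), a 2.70-fold increase. CDK6 fell by 2.09 (SE 0.096, edgeR adjusted p = 6.12e-06), a 4.27-fold decrease. Both calls held under all alternatives run, but on log2(TPM + 1) limma gave CDK4 a smaller change of 0.75 (adjusted p = 0.00673). Per length, the ratio of summed CDK4 to summed CDK6 FPKM was 5.71 and 4.34 in si-ctrl, 4.60 and 4.17 in si-PLANE.1, and 45.7 and 31.4 in si-PLANE.2. Between the main transcripts, CDK4-203 and CDK6-201, it was 2.13 and 2.35, 2.64 and 1.99, and 4.20 and 4.03 in the same order. CDK4-203 itself fell after si-PLANE.2, unlike the gene, and held only 7.16% and 7.46% of CDK4 FPKM there. The second ratio rose because CDK6-201 fell more.

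CDK6 had the longest main transcript of the set. CDK6-201 (ENST00000265734) is 11612 bases long in the tables, and in the annotation 10366 bases of it lie in the last exon, against 978 coding bases. It stood at 18.0 and 16.4 FPKM in si-ctrl, 13.4 and 14.7 in si-PLANE.1, and 3.43 FPKM in both si-PLANE.2 libraries (log2 fold change -2.05, SE 0.11, edgeR adjusted p = 0.00598). After si-PLANE.2, genes with long main transcripts had lower values in general, by length classes that were chosen after the data had been seen. The median log2 fold change was -0.011 for 3524 genes under 1000 bases, 0.19 for 7660 genes from 1000 to under 4000 bases, -0.45 for 2523 genes from 4000 to under 8000 bases and -1.08 for 461 genes of 8000 bases or more, of which 83.5% were lower at an adjusted p under 0.05. In that last class, 11.1% of the genes (51 of 461) were below -2, as CDK6 was, and so were 13.5% of those under 1000 bases (474 of 3524), 3.88% of those from 1000 to under 4000 bases and 3.37% of those from 4000 to under 8000 bases. After si-PLANE.1 the medians of the 4 classes lay between -0.012 and 0.040. The part of transcript length in the change of CDK6 was not tested.

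**Figure D4:**
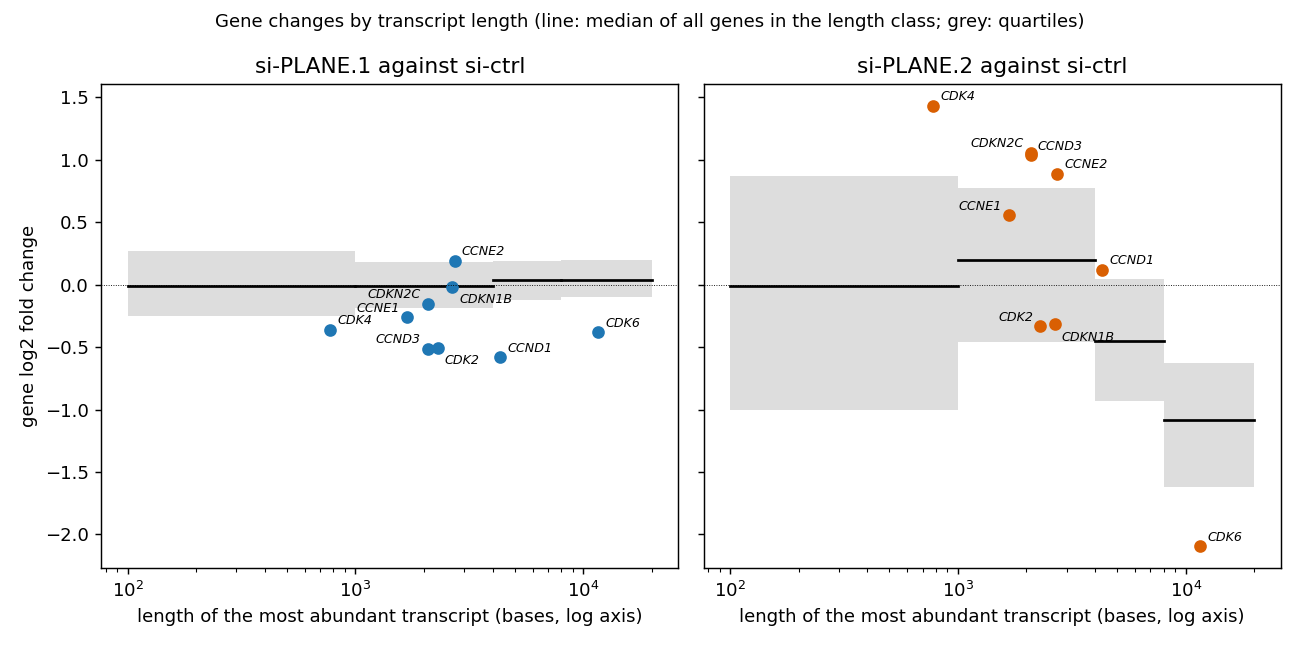
Gene log2 fold change against si-ctrl (vertical axis) by the length in bases of the transcript with the highest mean FPKM (horizontal log axis), for si-PLANE.1 (left) and si-PLANE.2 (right). Black lines are medians over all genes tested in a length class, grey bands are quartiles, and points are the 9 tested genes of the set. The class of 8000 bases or more has a median of -1.08 in si-PLANE.2, with CDK6 below its lower quartile, and 0.040 in si-PLANE.1.

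CDK4 had 16 listed transcripts, some of them without a count in any library. Of the 16, 9 reached 5 FPKM in some group, and these differed in direction after si-PLANE.2. The coding transcript CDK4-201 (ENST00000257904, 2076 bases), the longest of those named, stood at 8.54 and 12.6 FPKM in si-ctrl, 12.9 and 8.65 in si-PLANE.1, and 26.8 and 27.2 in si-PLANE.2 (log2 fold change 1.64, SE 0.24, edgeR adjusted p = 0.0192). CDK4-202 also rose, from 25.5 and 16.4 FPKM in si-ctrl to 55.2 and 45.0 FPKM (1.57, SE 0.28, edgeR adjusted p = 0.0281). CDK4-203 (ENST00000546489, 776 bases), which lacks the 237 bases of exon 2 and was the main transcript by mean FPKM, fell from 38.3 and 38.4 FPKM to 14.4 and 13.8 FPKM (-1.12, SE 0.21, edgeR adjusted p = 0.0296), and it was at 35.4 and 29.2 in si-PLANE.1.

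CDK4-204 (ENST00000547281) was listed at 0 in all libraries of the other groups and had 299 and 293 counts in si-PLANE.2, which made it at least 70.6-fold higher than in si-ctrl. CDK4-215 (ENST00000553237), a transcript annotated for nonsense-mediated decay that skips the 136 bases of exon 3, had 8.26 and 0 counts in si-ctrl, 0 in both si-PLANE.1 libraries, and 266 and 192 counts in si-PLANE.2 (log2 fold change 5.57, SE 1.32, edgeR adjusted p = 0.0483). A further entry, ENST00000540325, had the same length of 952 bases and the same counts and FPKM as CDK4-215 in all 6 libraries, so the tables do not distinguish them. The border that marks the skip is printed with the one it replaces, 5′ to 3′ on the minus strand of GRCh37, with capitals for the bases after the border.
CDK4-201, exon 2 (to chr12:58145283) joined to exon 3 (from chr12:58145125): tcccaatgttgtccgGCTGATGGACGTCTG
CDK4-215, exon 2 (to chr12:58145283) joined to exon 4 (from chr12:58144873): tcccaatgttgtccgGATCTGATGCGCCAG
The other named transcripts of CDK4 did not pass in edgeR. For si-PLANE.2 in DESeq2, where 32.9% of all transcripts passed, CDK4-211 (log2 fold change 2.81, adjusted p = 0.00223) and CDK4-214 (-4.45, 0.0177) passed. CDK4-207 did not (DESeq2 adjusted p = 0.183). CDK4-211 was at 12.3 and 2.63, 4.54 and 1.92, and 41.7 and 40.8 FPKM (edgeR adjusted p = 0.0678 for si-PLANE.2), CDK4-214 was at 15.6 and 17.7, 12.9 and 6.31, and 1.08 and 0 FPKM (edgeR adjusted p = 0.0816), and CDK4-207 was at 0 and 5.66, 3.66 and 8.17, and 0 and 0 FPKM.

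CDK2 (chr12:56360565-56366573, plus strand), the kinase that cyclin E activates, was at 53.9 and 64.9 CPM in si-ctrl, 41.7 and 42.3 in si-PLANE.1, and 51.1 and 43.9 in si-PLANE.2. Like CDK6, it lay below si-ctrl in CPM without overlap after both siRNAs, but neither comparison passed, at -0.50 (SE 0.15, edgeR adjusted p = 0.359) and -0.33 (SE 0.13, edgeR adjusted p = 0.0567). The si-PLANE.2 value was -0.47 without si-ctrl replicate 1 (edgeR adjusted p = 5.94e-05) and -0.19 without si-ctrl replicate 2 (edgeR adjusted p = 0.136), where the lone control library is assumed to vary like the si-PLANE.2 libraries, and with a minimum of 2 FPKM it was -0.38 (edgeR adjusted p = 0.0309). On summed FPKM, CDK2 was at 30.6 and 36.0 in si-ctrl, 32.6 and 29.1 in si-PLANE.1 and 34.8 and 24.7 in si-PLANE.2, so that all groups overlapped, and limma on log2(FPKM + 1) gave -0.10 after si-PLANE.1 (adjusted p = 0.851) and -0.17 after si-PLANE.2 (adjusted p = 0.470). The main transcript CDK2-201 (ENST00000266970) stood at 20.4 and 22.6 FPKM in si-ctrl, 15.1 and 12.8 in si-PLANE.1, and 16.9 and 14.8 in si-PLANE.2. It passed neither after si-PLANE.1 (log2 fold change -0.72, SE 0.17, edgeR adjusted p = 0.999) nor after si-PLANE.2 (-0.15, SE 0.16, edgeR adjusted p = 0.495).

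CDK2-202 (ENST00000354056), a coding transcript that lacks the 102 bases of exon 5 (chr12:56363259-56363360), kept its level in si-PLANE.1 within the spread of the libraries, at 8.19 and 10.4 FPKM against 7.81 and 9.56 FPKM in si-ctrl (log2 fold change 0.015, SE 0.30, edgeR adjusted p = 0.9997), and fell to 1.00 and 0.930 FPKM in si-PLANE.2 (-2.89, SE 0.39, edgeR adjusted p = 0.0166). The borders that tell the transcripts apart are these, on the plus strand of GRCh37, with the bases after the border in capitals.
CDK2-201, exon 4 (to chr12:56362732) joined to exon 5 (from chr12:56363259): acttacacccatgagGTGGTGACCCTGTGG
CDK2-202, exon 4 (to chr12:56362732) joined to exon 6 (from chr12:56364828): acttacacccatgagGTGACTCGCCGGGCC
CDK2-205 was listed at 0 in all libraries of the other groups and had 60.1 and 22.6 counts in si-PLANE.2, at least 9.60-fold higher than in si-ctrl. CDK2-211 reached 8.04 and 2.85 in si-PLANE.1, against 0 and 0.27 FPKM in si-ctrl and 0.40 and 0.64 FPKM in si-PLANE.2, and did not pass in edgeR for si-PLANE.1 (adjusted p = 0.999). The main transcripts of CDK4 and CDK2 also share exonic bases with genes on the other strand, CDK4 214 with TSPAN31 and CDK2 89 with PMEL and 287 with ENSG00000258554.

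Of the inhibitors, CDKN1B (chr12:12838432-12875303, plus strand), which encodes p27, was at 106 and 116 CPM in si-ctrl, 101 and 120 in si-PLANE.1, and 94.1 and 85.7 in si-PLANE.2. The si-PLANE.1 values enclosed those of si-ctrl (log2 fold change -0.015, SE 0.13, edgeR adjusted p = 0.977), and the si-PLANE.2 values lay below them (-0.32, SE 0.10, edgeR adjusted p = 0.0280). The latter call was lost without replicate 3 (edgeR adjusted p = 0.0976) or 4 (0.250) of si-PLANE.2, and the value was -0.54 with limma on log2(TPM + 1) (adjusted p = 0.0113). Its main transcript, CDKN1B-201, was at 43.95 and 47.1, 45.1 and 51.1, and 33.3 and 29.3 FPKM, and did not pass (edgeR adjusted p = 0.218 for si-PLANE.2).

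CDKN2C (chr1:51426417-51440306, plus strand), which encodes p18, was at 16.7 and 18.8 CPM in si-ctrl, 17.6 and 14.5 in si-PLANE.1, and 37.1 and 37.4 in si-PLANE.2. It overlapped with the control after si-PLANE.1 (-0.15, SE 0.18, edgeR adjusted p = 0.788) and rose 2.08-fold after si-PLANE.2 (1.06, SE 0.12, edgeR adjusted p = 0.000223), or by 0.66 with limma on log2(TPM + 1) (adjusted p = 0.00945). Its main transcript CDKN2C-203 rose alike, from 8.35 and 8.31 FPKM to 14.7 and 15.6 FPKM (1.15, SE 0.16, edgeR adjusted p = 0.0173). The ratio of summed CDKN1B to CDKN2C FPKM was 4.59 and 4.22 in si-ctrl, 4.12 and 5.37 in si-PLANE.1, and 1.81 and 1.89 in si-PLANE.2. In bulk RNA, less RNA per cell and fewer cells that express a gene cannot be told apart.

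The siRNAs were also compared with each other in a fit of all 6 libraries, in which the control libraries do not enter the contrast. At an adjusted p under 0.05, 6 of the 9 genes differed, against 64.4% of the 14440 genes tested (31.1% higher and 33.4% lower). CCND1 (log2 difference of si-PLANE.2 minus si-PLANE.1 0.71, SE 0.11, edgeR adjusted p = 0.000686), CCND3 (1.55, SE 0.11, 6.88e-06), CCNE1 (0.82, SE 0.17, 0.00244), CDK4 (1.80, SE 0.11, 3.91e-06) and CDKN2C (1.21, SE 0.15, 0.000138) were higher in si-PLANE.2. CDK6 was lower (-1.71, SE 0.11, edgeR adjusted p = 4.52e-06). CCNE2 (0.70, edgeR adjusted p = 0.0907), CDK2 (0.18, 0.257) and CDKN1B (-0.30, 0.0527) did not pass. CDKN1B passed with upper-quartile factors (-0.36, edgeR adjusted p = 0.0267), with a minimum of 2 FPKM (-0.36, 0.0237) and with limma on log2(FPKM + 1) (-0.44, 0.0139), log2(FPKM + 0.1) (-0.45, 0.0139) and log2(TPM + 1) (-0.68, 0.00281). Without si-PLANE.1 replicate 1, CCNE2 (1.10, edgeR adjusted p = 0.0454) and CDKN1B (-0.42, 0.0217) passed, and without replicate 2 they were at 0.39 (0.377) and -0.18 (0.249). The differences of CCND1 and CCNE1 did not pass in limma on log2(FPKM + 1), where they were 0.061 (adjusted p = 0.680) and 0.31 (adjusted p = 0.229).

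The 38 other genes of the pathway were taken from a list of inhibitors, retinoblastoma and E2F family members, ubiquitin ligases for cyclins and p27, upstream factors and CCNA2. The list also held the CDK-activating kinase with its subunits, and a phosphatase, an inhibitory kinase and a chaperone that act on CDKs. Of the 38 genes, 36 were tested. After si-PLANE.1, 0 passed in edgeR, 5 had an unadjusted p under 0.05 (1517 of all 14535 genes did), and their median log2 fold change was -0.091, against 0.0018 over all genes. The si-PLANE.2 comparison had 17 higher and 13 lower, where 31.8% of all genes were higher and 32.3% lower, with a median of -0.018 against -0.027 over all genes. Of 10 ubiquitin ligase genes, 7 were higher and 2 lower. The 10 retinoblastoma and E2F/DP genes had 3 higher and 4 lower, and the 6 upstream factors had 3 of each. The 6 genes CDK7, CCNH, MNAT1, CDC25A, WEE1 and CDC37 had 2 higher and 3 lower. Of the 3 other inhibitors tested, 2 were higher, and CCNA2 was lower. CDKN2A and CDKN2B, which encode the INK4 inhibitors p16 and p15, were at most 0.44 FPKM in every library and were not tested.

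Among the pathway genes that passed, the 3 with the largest rise after si-PLANE.2 were JUN, a subunit of AP-1 (1.98, SE 0.19, edgeR adjusted p = 9.74e-05), CDKN2D, the INK4 inhibitor p19 (1.96, SE 0.39, edgeR adjusted p = 0.00321), and E2F1, an activating E2F factor (1.76, SE 0.11, edgeR adjusted p = 1.53e-05). Among those that passed, the 3 with the largest fall were FOXO1, a factor that AKT restrains (-2.20, SE 0.20, edgeR adjusted p = 6.82e-05), WEE1, a kinase that inhibits CDKs (-1.31, SE 0.11, edgeR adjusted p = 5.10e-05), and RBL2, the retinoblastoma relative p130 (-1.24, SE 0.099, edgeR adjusted p = 4.05e-05). After si-PLANE.1 these genes were at 0.42, 0.62, -0.44, -0.079, 0.0054 and -0.31, in the same order, and none of the 6 passed (edgeR adjusted p from 0.478 to 0.993).

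CCND1, the gene of the set with the highest level in si-ctrl, was also compared with all other genes tested by its pattern over the 6 libraries. Among 14439 genes, the highest Pearson correlations of log2(CPM + 1) were those of ERG28 (0.995), CBFB (0.983) and ICAM1 (0.979). ERG28 stood at 21.4 and 20.1 FPKM in si-ctrl, 17.0 and 15.0 in si-PLANE.1, and 19.7 and 20.5 in si-PLANE.2. CBFB was at 28.9 and 26.4, 13.7 and 9.73, and 17.4 and 14.1 FPKM in the same order, so on FPKM its si-PLANE.2 values lay below si-ctrl. ICAM1 was low, at 1.76 and 1.26, 0.92 and 0.35, and 1.74 and 1.50 FPKM. These values are descriptions over 6 libraries in 3 groups that differ in depth and may differ in preparation, and no test was made of them.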

How the data were processed

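RNA-seq was analysed in 6 libraries of A549 cells, 2 per group, grouped by the sample labels. For every transcript the authors deposited an expected count, which is not normalized, and an FPKM value, scaled by them to length and depth, in 2 tables with the same si-ctrl libraries. The submitters' processing notes name Trimmomatic 0.30, HISAT2 2.0.1, HTSeq 0.6.1, DESeq and hg19, without roles, and which tool made the expected counts is not given in the sources used here. All 6 columns of libraries were used.

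Transcript values were summed per gene. Transcripts without a gene identifier (16723 of 180253) held 3.03% to 3.62% of the counts and were left out of the sums. After rounding of the expected counts, edgeR's two-sided quasi-likelihood test (glmQLFit, glmQLFTest, TMM factors, edgeR 4.0.16, R 4.3.3) was run for each siRNA against si-ctrl in a fit of its own 4 libraries, over all features with a mean of at least 0.5 FPKM, with Benjamini-Hochberg adjustment and a threshold of 0.05. The siRNAs were compared with each other in a fit of all 6 libraries. The standard error of a fold change was derived from its F statistic. The main transcript is that with the highest mean FPKM over the 6 libraries. CPM values are TMM-normalized over the 6 libraries. Where a transcript had no count in si-ctrl, a lower bound of the fold was computed against 3 counts per library.

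All 10 genes are named, with their main transcript and any transcript at 5 FPKM or more in a group mean or leading a group, and of the other pathway genes those called for si-PLANE.1 and the 3 higher and 3 lower with the largest change for si-PLANE.2. The genes and lists were chosen with earlier results of these data known. The alternatives were DESeq2 1.42.0, RLE and upper-quartile factors, no minimum and a minimum of 2 FPKM, limma 3.58.1 on log2(FPKM + 1), log2(FPKM + 0.1) and log2(TPM + 1), all 6 or only the 4 siRNA libraries in one fit, a replicate block, the main transcript set by si-ctrl alone, and leaving out each library. The scripts were tested on simulated data. Of the 86 transcripts, 85 were found in GENCODE v44lift37, 70 with the same length, and sequences were read from its transcripts.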

Additional observations from a re-analysis of the deposited data

Results flagged for a closer look

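For 6 of the 10 genes the level in the si-PLANE.2 libraries differed from that in the si-PLANE.1 libraries. The difference itself was tested, with edgeR's quasi-likelihood test in the fit of all 6 libraries. The siRNA and the preparation of the si-PLANE.2 libraries cannot be told apart here either. The log2 difference of si-PLANE.2 minus si-PLANE.1 was 0.71 for CCND1, 1.55 for CCND3, 0.82 for CCNE1, 1.80 for CDK4, -1.71 for CDK6 and 1.21 for CDKN2C. By the same test, 64.4% of all genes tested differed. The si-PLANE.2 and si-PLANE.1 libraries did not overlap in any of the 9 tested genes, so this does not mark out the 6. The share of all genes without overlap in this comparison is not given here. CCND3 and CDK4 lay below si-ctrl in both si-PLANE.1 libraries and above it in both si-PLANE.2 libraries. CDK6 lay below si-ctrl in all 4 siRNA libraries.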

How the results depend on the processing

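After si-PLANE.1 the number of genes called was 0 in edgeR and 1 in DESeq2, with 0.0344% and 0.853% of all genes. The number of main transcripts called was 0 in edgeR and 1 in DESeq2, with 0.0% and 0.661% of all transcripts. Leaving out a library added no call. Only si-ctrl and si-PLANE.1 have replicate numbers in common (1 and 2), and no source says that a number stands for a batch. The deviations of same-numbered libraries correlated at 0.490 across 14535 genes, with 2 pairs. With a replicate block for that number, 5 genes of the set were called, all lower (CCND1, adjusted p = 6.67e-05, CCND3, 0.000348, CDK2, 0.00469, CDK4, 0.0494, and CDK6, 0.0147), among 1225 genes or 8.43% of all, and 0 main transcripts were. After si-PLANE.2 the number of genes called was 6 to 8 with all libraries kept (45.8% to 68.4% of all genes) and 4 to 8 when each library was left out (46.0% to 69.8%), 4 being the number without either si-PLANE.2 library. The number of main transcripts called was 4, or 5 with the main transcript set by si-ctrl alone, where 25.6% of all transcripts passed. It was 5 in DESeq2 (32.9% of all transcripts) and 3 with no minimum (10.8%). Fewer main transcripts were called with a library left out, and the limit given above for leaving out a si-PLANE.2 library holds here too. For si-PLANE.2 against si-PLANE.1 the numbers were 5 to 7 (47.6% to 68.5% of all genes), and 6 to 8 with a library left out (51.0% to 65.9%).

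Values that changed sign under other scalings were CCND1 after si-PLANE.2, at -0.45 with limma on log2(FPKM + 1), -0.45 on log2(FPKM + 0.1) and -0.61 on log2(TPM + 1), and CDKN1B after si-PLANE.1, at 0.056, 0.057 and 0.13 in the same 3 fits and 0.015 with upper-quartile factors. On log2(TPM + 1), CDKN2C after si-PLANE.1 was at 0.037, and for si-PLANE.2 against si-PLANE.1 CCND1 was at -0.17 and CDK2 at -0.30, CDK2 being at -0.068 and -0.071 on the FPKM scales. With a library left out after si-PLANE.1, CCNE2 ran from -0.21 to 0.50 and CDKN1B from -0.14 to 0.10. After si-PLANE.2, limma put the all-gene median at -0.22 on log2(FPKM + 1) and at -0.37 on log2(TPM + 1), where the calls split into 2315 higher and 5776 lower, against -0.027 in edgeR. After si-PLANE.1 it was 0.075 and 0.15 in these 2 fits. DESeq2 called 124 genes after si-PLANE.1, against 5. With 2 libraries per group and CCNE2 at 6.66 CPM or less, small changes of that gene are beyond this depth.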
